A study of Arabidopsis thaliana with 6 samples.

Results

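Cytochrome P450 genes of Arabidopsis thaliana were followed in rosette leaves during the first 2 h of light after a dark period. They were taken as the probe sets of a single gene whose symbol in the platform annotation starts with CYP and a digit, with a signal of 185 or more on at least 1 of 6 arrays. Of 26 such probe sets, 10 reached that signal, among 13062 of 22746 non-control probe sets that did. No gene had more than 1 probe set, so none had to be chosen. The symbol goes against the label for 1 of the 10. CYP71 (AT3G44600) is listed in RefSeq as a cyclophilin, a protein-folding enzyme and no P450. The other 9 are P450 genes, 8 of subfamily CYP71B and 1 of subfamily CYP78A. RefSeq lists 225 protein-coding genes with a P450 symbol, so these 9 stand for a small share of the family, and most other P450 genes were not analysed here.

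Cytochromes P450 are haem enzymes, mostly bound to the endoplasmic reticulum, that use molecular oxygen and electrons from a reductase to oxidise small molecules. In plants they act in the synthesis and turnover of hormones, pigments, sterols, cuticle lipids and defence compounds. The CYP71B subfamily expanded strongly in Arabidopsis, largely in tandem arrays. Its best known gene, PAD3 (CYP71B15), makes the phytoalexin camalexin and is not among the genes described here.

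The wild type was Landsberg erecta (Ler), and the mutant carries the allele flu1-1 in that ecotype. FLU, a plastid protein, holds back tetrapyrrole synthesis in darkness. In flu, protochlorophyllide builds up in the dark and releases singlet oxygen in plastids once light returns. All plants were 3 weeks old, grown on soil in continuous light, then kept in darkness for 8 h and lit again for 30 min, 60 min or 2 h. For every combination of genotype and time there was 1 ATH1 array, hybridised with RNA pooled from 2 experiments of 5 to 6 plants per sample. Values at a single time thus have no replicate, and precision is limited by there being 6 arrays. No array is of plants still in the dark, and a difference present before the light cannot be told apart from one that arose in it. No probe set was named FLU, so the mutant label was not checked against its gene. Rubisco activase (RCA), the 1 leaf marker of 10 with a named probe set, had signals of 14994 to 20955. The root hair marker EXPA7 had 17.3 to 60.0, and markers of flower, phloem and seed had no named probe set. Hybridisation controls had their lowest geometric mean on the flu array of 30 min (743, against 1077 to 1468 on the others). In such bulk samples, fewer cells of a type and less RNA per cell cannot be told apart.

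CYP71B22 (AT3G26200) had the largest differences between flu and Ler. In flu its signal was 176 after 30 min, 395 after 60 min and 452 after 2 h of light, and in Ler it was 94.4, 68.7 and 67.0. All 3 flu arrays stood above all 3 Ler arrays, which was so for 9.36% of the probe sets tested. Its Ler signals all lay below the threshold of 185, so the gene was included only through flu. The flu signal was 1.86, 5.74 and 6.75 times that of Ler at the 3 times. On the scale log2(signal + 50), which shrinks changes of dim genes, the mean difference over the 3 times was 1.55 (SE 0.33, 3 of 3 times higher). This did not pass the limma test with time as a block (adjusted p = 0.0745). The test's residual of 2 degrees of freedom counts the growth of the difference with time as noise. Without the 30 min arrays the difference was 2.00 (limma, adjusted p = 0.0177), and without the 2 h arrays 1.28 (limma, adjusted p = 0.0290). Without the 60 min arrays it was 1.37 (limma, adjusted p = 0.477), the highest adjusted p over all alternatives. Calls over all probe sets moved too, from 424 to 701, 717 and 75 without the 30 min, 2 h and 60 min arrays. These fits have 1 residual degree of freedom and lean on the variance prior. Without the 2 h arrays the prior had 14.48 degrees of freedom, against 4.18 with all arrays, while the SE for CYP71B22 stayed at 0.33.

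CYP71B23 (AT3G26210), the next gene along the chromosome, was the only member past the threshold in any of the 3 tests run. Its signals in flu were 557, 871 and 1233 in order of time, and those in Ler were 602, 582 and 495. At 30 min flu was slightly below Ler, at 60 min above it and at 2 h 2.49 times as bright. The flu minus Ler difference was -0.10, 0.54 and 1.24 on the log2 scale. When the difference was tested for a steady change over log2 minutes, it rose by 0.67 per doubling of the time in light (SE 0.17, limma, adjusted p = 0.0479). Over the alternatives the adjusted p ran from 0.0408 to 0.111, and the call was lost with quantile normalization (adjusted p = 0.0781) and with a variance prior without trend (adjusted p = 0.111). That test has 1 residual degree of freedom and leans on the variance prior. In simulated data with 200 changed probe sets it also called 25 unchanged ones, so a call near the threshold is weak. The mean difference over the 3 times was 0.56 (SE 0.26, adjusted p = 0.298). For CYP71B22 the slope was 0.73 per doubling (SE 0.27), which did not pass (limma, adjusted p = 0.176).

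Among the 10 members, 0 were called for a mean flu minus Ler difference, beside 3.25% of all probe sets tested (2.87% with flu higher, 0.375% with flu lower). At an unadjusted p under 0.05 there were 2, CYP71B22 higher and CYP71B35 lower, beside 20.4% of all. By genotype and log2 minutes 1 of 10 was called with a difference that rose, beside 5.08% of all (3.64% rising and 1.43% falling), and with so few members this share is near the background. At an unadjusted p under 0.05 that test had 2 members (CYP71B22 and CYP71B23), beside 18.9% of all. For the change from 30 min to 2 h shared by both genotypes, 0 members and 0 of all probe sets passed in limma (0%), and at an unadjusted p under 0.05 these were 0 members and 11.4% of all. In simulated data the test of a mean difference called 10% of log2 changes of 1 and 69% of those of 2. That of 2 h against 30 min called 2% and 43%, so a count of 0 does not show that nothing changed.

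**Figure D1:**
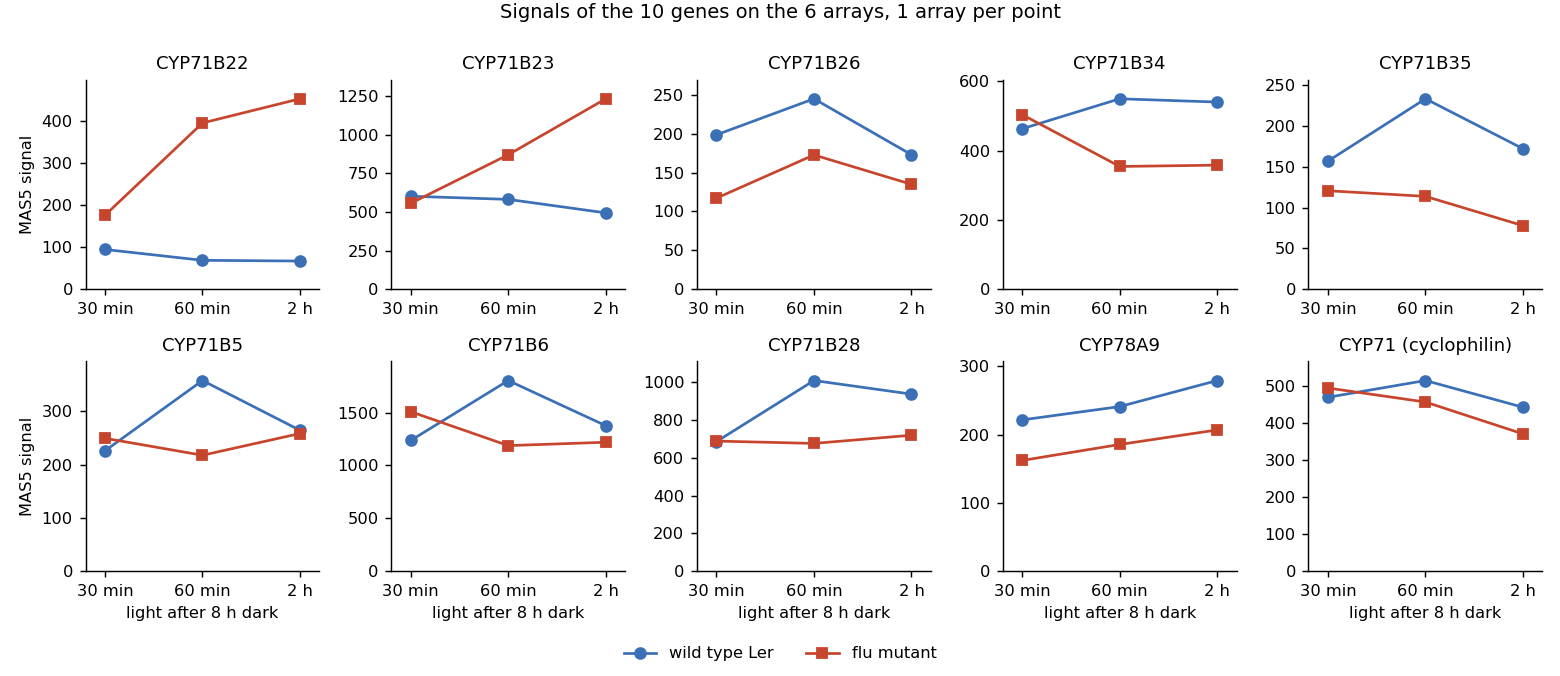
MAS5 signal (linear axis from 0) of each of the 10 genes against time in light, with 1 array per point, circles for wild type Ler and squares for flu. In flu CYP71B22 and CYP71B23 stand at 452 and 1233 at 2 h, while 7 of the 10 genes have their brightest array in Ler at 60 min.

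The other 8 members differed less, and none was 2-fold apart at any time on the log2(signal + 50) scale. CYP71B35 (AT3G26310) read 121, 114 and 77.8 in flu and 157, 233 and 172 in Ler. All of its flu arrays lay below all of its Ler arrays, but it reached the threshold of 185 only on the Ler array of 60 min, so the gene was included only through the genotype in which it was brighter. Without the added 50, its flu signal was 0.488 times that of Ler at 60 min and 0.453 times at 2 h. Its mean difference was -0.62 (SE 0.25, 3 of 3 times lower), and it did not pass (limma, adjusted p = 0.236). CYP71B26 (AT3G26290) had 117, 173 and 135 in flu against 199, 245 and 173 in Ler. The flu value at 60 min and the Ler value at 2 h nearly met, with no overlap, the threshold was reached only in Ler, and the mean difference was -0.42 (SE 0.21, limma, adjusted p = 0.324). CYP71B34 (AT3G26300) had 504, 354 and 358 in flu against 463, 550 and 540 in Ler, so that flu was the brighter genotype at 30 min and the dimmer one afterwards. Its mean difference was -0.33 (SE 0.19, limma, adjusted p = 0.383).

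The CYP71B genes elsewhere in the genome had flu at or above Ler at 30 min and below it later. CYP71B6 (AT2G24180), whose enzyme metabolises indole-3-acetonitrile, a nitrile of indolic defence metabolism, read 1510, 1188 and 1220 in flu and 1237, 1806 and 1378 in Ler. Its flu minus Ler differences were 0.28, -0.58 and -0.17 on the log2 scale, with a mean of -0.16 (SE 0.20, limma, adjusted p = 0.684). CYP71B5 (AT3G53280) had 249, 217 and 258 in flu against 226, 358 and 264 in Ler, and CYP71B28 (AT1G13090) had 689, 676 and 720 against 686, 1010 and 938. For both genes the 30 min arrays were close and the widest gap was at 60 min, at -0.61 and -0.55. The mean differences of CYP71B5 and CYP71B28 were -0.17 (SE 0.21) and -0.30 (SE 0.17), with limma adjusted p = 0.660 and 0.383. Without the 60 min arrays the mean turned positive for CYP71B6 (0.05) and CYP71B5 (0.04).

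CYP78A9 (AT3G61880), of a family that acts in organ growth and whose overexpression enlarges the fruit of Arabidopsis, was the 1 member outside CYP71B among the P450 genes. Its signals were 162, 185 and 207 in flu against 222, 241 and 279 in Ler. Flu lay below Ler by nearly the same amount at each time (-0.36, -0.31 and -0.36), and in both genotypes the 2 h array was the brightest. The mean difference of -0.34 (SE 0.18) did not pass (limma, adjusted p = 0.342), although no array of one genotype overlapped the other. The cyclophilin gene CYP71, whose protein is linked to chromatin regulation in organ formation, had 495, 457 and 371 in flu against 470, 515 and 443 in Ler. Its mean difference was -0.11 (SE 0.15, limma, adjusted p = 0.723), the smallest of the 10 in size.

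**Figure D2:**
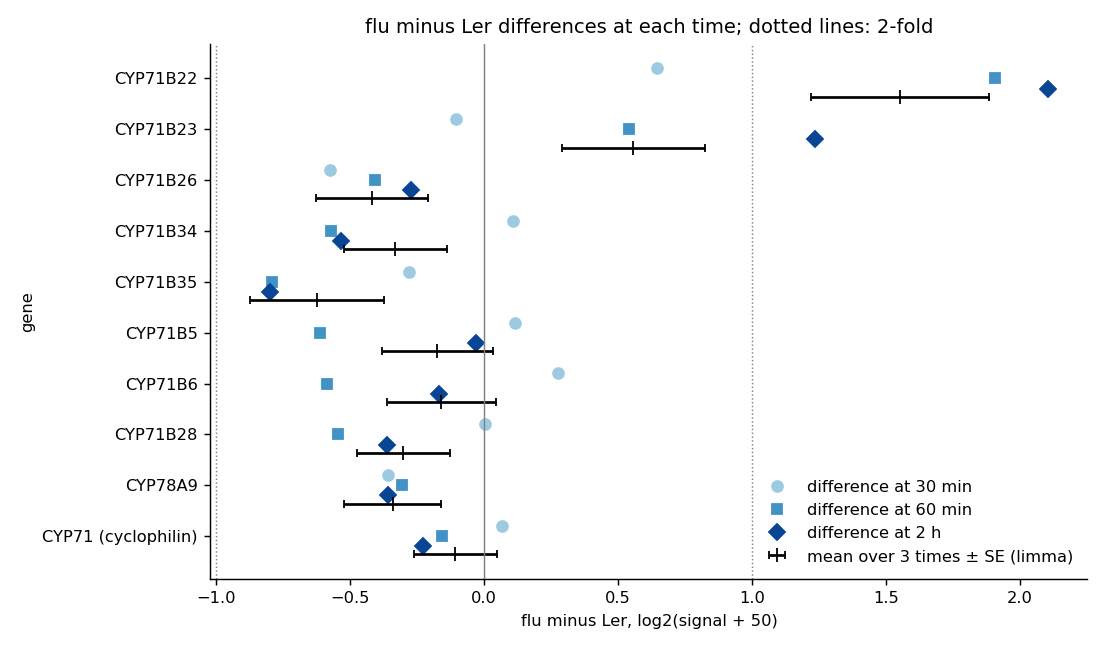
Flu minus Ler differences on the log2(signal + 50) scale at each of 3 times (circle, square, diamond) for the 10 genes, with the mean over times and its limma SE as a bar and 2-fold marked by dotted lines. CYP71B22 passes 2-fold at 60 min and 2 h and CYP71B23 at 2 h, and the other 8 genes lie between -0.80 and 0.28.

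Counted at single times on the log2(signal + 50) scale, with no test, 0 of 10 members were at least 2-fold higher in flu at 30 min, where 2.98% of all probe sets tested were. At 60 min 1 was (CYP71B22, beside 6.12% of all), and at 2 h 2 were (CYP71B22 and CYP71B23, beside 10.1%). On that scale none was 2-fold lower, where 0.413%, 1.44% and 5.5% of all probe sets were in order of time. With an offset of 16 in place of 50, 1 was lower at 2 h, CYP71B35. At 1.5-fold, 1 member was higher at 30 min (CYP71B22, beside 6.68% of all) and 0 lower (4.23%). At 60 min 1 was higher (10.5%) and CYP71B35 and CYP71B5 were lower (8.72%). At 2 h CYP71B22 and CYP71B23 were higher (15.7%) and CYP71B35 was lower (20.2%). Flu was below Ler, by any amount, for 4 of 10 members at 30 min and for 8 at both 60 min and 2 h, beside 55%, 59% and 64.6% of all. With quantile normalization these counts were 5, 8 and 7. The median difference of the 10 was 0.04, -0.48 and -0.25 at the 3 times, and that of all probe sets tested was -0.04, -0.08 and -0.20. At each time flu was below Ler for 3 members (CYP71B26, CYP71B35 and CYP78A9), beside 29.9% of all probe sets. For these 3 genes every flu signal was also below every Ler signal, beside 18.2% of all, but CYP71B26 and CYP71B35 reached the threshold only in Ler, which favours this count.

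At 60 min the Ler array set the pattern for most members. It was the brightest of the 6 arrays for 7 of the 10 genes, namely CYP71B5, CYP71B6, CYP71B26, CYP71B28, CYP71B34, CYP71B35 and the cyclophilin gene, beside 13% of all probe sets tested. Among the 3 Ler arrays it was the brightest for the same 7 genes, beside 26.6% of all. For CYP71B35 this was fixed by the threshold, which it reached on no other array. The count was chosen after the values were seen and has no test, and it stayed at 7 with quantile normalization. From 30 min to 60 min, Ler signals of CYP71B5, CYP71B6, CYP71B28 and CYP71B35 changed by 0.56, 0.53, 0.53 and 0.45 on the log2 scale, while the median of all probe sets changed by -0.03. In flu the same step was -0.16, -0.33, -0.02 and -0.06. Only for CYP71B26 was the 60 min array the brightest of the 3 flu arrays, where 24.7% of all probe sets had it so. The high Ler values at 60 min rest on 1 array, and whether they belong to that array or to the plants was not tested.

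**Figure D3:**
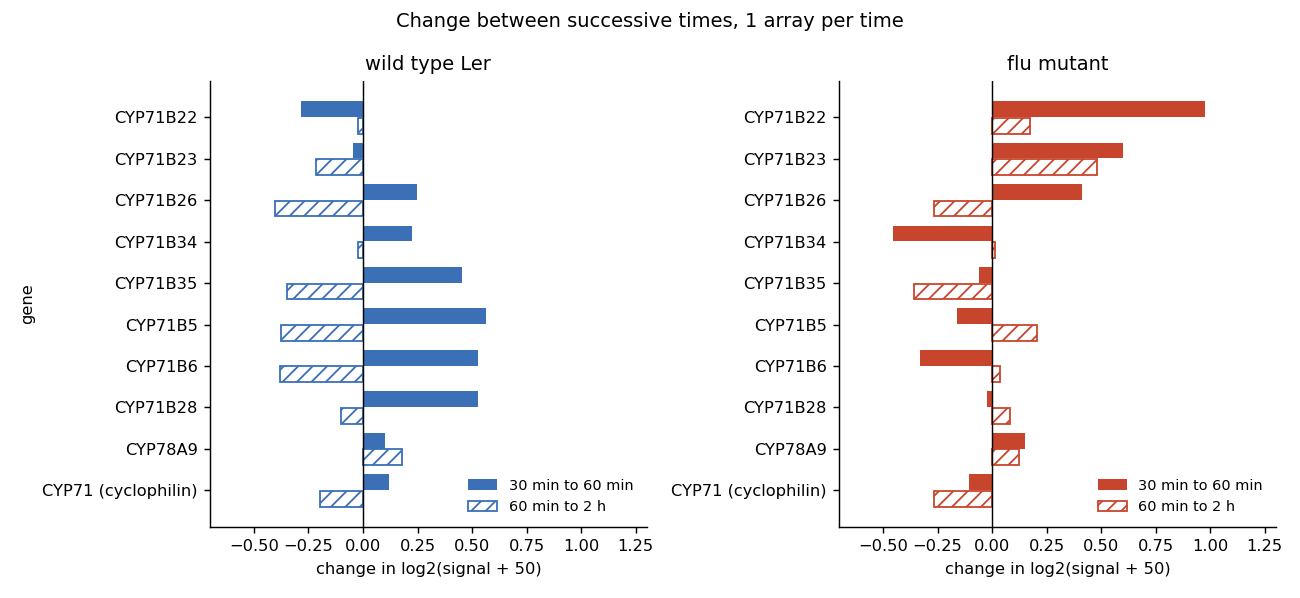
Change in log2(signal + 50) from 30 min to 60 min (filled bars) and from 60 min to 2 h (hatched bars) for the 10 genes, in Ler on the left and in flu on the right. In Ler 8 genes have a positive first step, and in flu the longest bars are those of CYP71B22 and CYP71B23, which step up both times.

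From 30 min to 2 h no member was 2-fold apart in Ler on that log2 scale, where 2.74% of all probe sets did. The widest change was that of CYP71B28, at 0.42, and the most negative was that of CYP71B22, at -0.30. In flu CYP71B22 changed by 1.15 and CYP71B23 by 1.08, where 7.43% of all probe sets were at least 2-fold higher at 2 h. The most negative flu changes were those of CYP71B34 (-0.44) and CYP71B35 (-0.42). In both CYP71B22 and CYP71B23 the signal went down at each step in Ler and up at each step in flu. The Ler steps were small, at -0.28 and -0.02 for CYP71B22, dim in Ler, and -0.05 and -0.21 for CYP71B23. Such opposite courses, in either direction, were found for 9.19% of all probe sets.

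By subfamily, the 8 CYP71B genes held both ends of the range of mean differences, from CYP71B35 to CYP71B22. They are 8 of the 10 members, and both end genes reached the threshold only in the genotype in which they were brighter. In order of time the median difference of the 8 was 0.06, -0.56 and -0.22. With CYP71B22 and CYP71B23 left out, that of the other 6 was 0.06, -0.58 and -0.31. CYP78A had 1 gene, so no spread within it could be given, and families were compared by values only.

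The CYP71B genes of the run on chromosome 3 are described by their values only. In RefSeq, 16 protein-coding genes and 2 pseudogenes of CYP71B lie between CYP71B16 and CYP71B37, in a stretch of 25 genes of any kind. Of these, 11 had a probe set of a single gene, 5 of them members and 6 dimmer. CYP71B22 and CYP71B23 are direct neighbours and had the 2 highest differences at 2 h (2.10 and 1.24). CYP71B34 and CYP71B35, also direct neighbours and further along the run, stood at -0.53 and -0.80. CYP71B26, near them, was at -0.27. Such tandem copies can be alike in sequence, and RNA of one copy that binds to the probes of another was not tested. No sequence of these genes was used here.

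**Figure D4:**
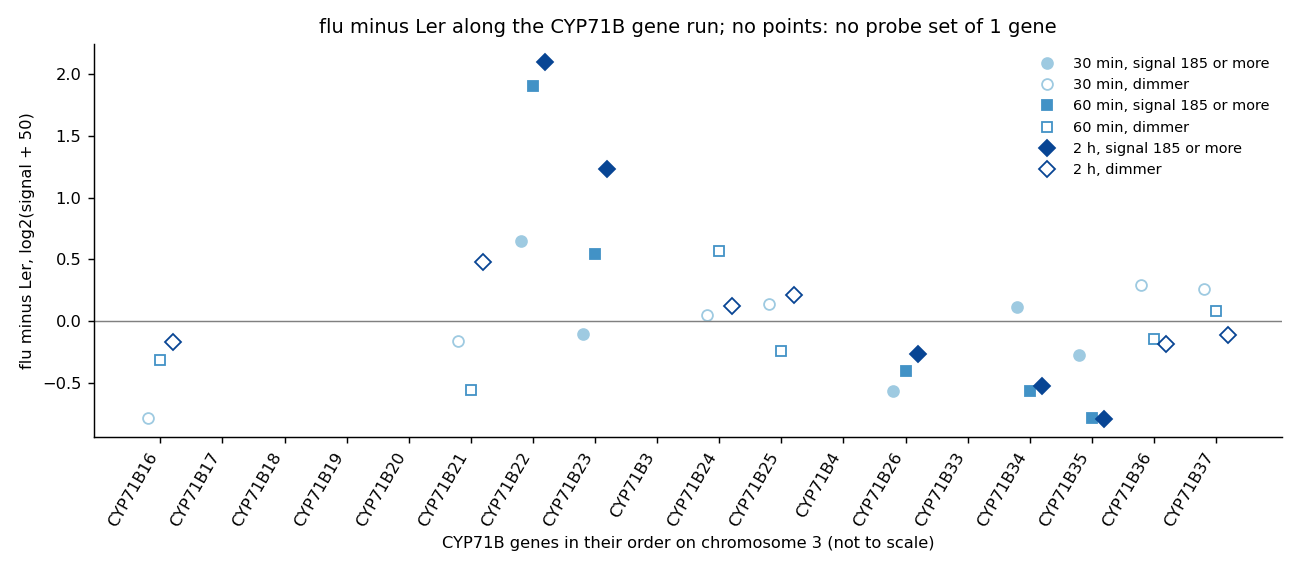
Flu minus Ler differences on the log2(signal + 50) scale at the 3 times (circle, square, diamond) for the CYP71B genes in their order on chromosome 3 (not to scale), with filled symbols for members and open ones for probe sets dimmer than a signal of 185. The highest points are those of the neighbours CYP71B22 and CYP71B23, and CYP71B26, CYP71B34 and CYP71B35 lie below 0 at 60 min and 2 h.

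The threshold left out 15 P450 probe sets and 1 of another cyclophilin gene (CYP59). Just inside it were CYP71B35 and CYP71B26, with highest signals of 233 and 245. Just outside were CYP59 with 152, CYP71B29 with 116 and CYP84A4 with 113. Of the 15 dim P450 probe sets 11 were of CYP71B, and 9 stayed below a signal of 50 on every array. Among the other 4 were CYP51G2, of the sterol demethylase family, and CYP79A2, which makes phenylacetaldoxime and whose highest signal was 5.58. Without a filter on low values none of the 15 was called for a mean difference in limma (lowest adjusted p = 0.326, and 1 with an unadjusted p under 0.05, CYP71B16). CYP84A4 had signals of 22.2, 72.3 and 113 in flu and 39.3, 85.3 and 37.1 in Ler, with its highest value in flu at 2 h. None of the 15 was 2-fold apart at any time on the log2(signal + 50) scale. For the 9 below 50 on every array the added 50 fixed this outcome in advance, so it says nothing of their change.

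Other enzyme families that act on small molecules, often after P450 enzymes, were set beside these genes. Of 21 tested glycosyltransferase genes with a UGT symbol, 8 were at least 2-fold higher in flu at 2 h on the log2(signal + 50) scale and 1 lower, and their median difference at 2 h was 0.55. Of 7 glutathione S-transferase genes 2 were higher and 1 lower, with a median of -0.15. For the P450 genes and the cyclophilin these were 2, 0 and -0.25. Of all probe sets tested, 10.1% were higher and 5.5% lower, with a median of -0.20. At 30 min and 60 min the median of the UGT genes was -0.19 and 0.13. The counts at 2 h rest on 1 array of each genotype. Among the 3 Ler arrays, that of 60 min was the brightest for 10 of the 21 UGT genes and 2 of the 7 glutathione S-transferase genes. Opposite courses in Ler and flu, as in CYP71B22 and CYP71B23, were found for 2 of the 21 and 3 of the 7. A difference between the families was not tested.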

How the data were processed

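The authors deposited MAS5 signals, that is a linear intensity for each probe set. MAS5 is named in the submitters' processing notes, without a version. On every array the mean signal after trimming 2% at each end was 500.0, so arrays had been scaled by the authors. Total RNA of 2 experiments was pooled before labelling, per the labels' design text, and each group has 1 array, so no p-value measures a spread of replicates. Those of the mean flu minus Ler difference reflect how it varied over 3 times. Those of genotype by log2 minutes reflect how far the 3 differences lay from a straight line. Each also draws on the variance prior. Values of dim probe sets are noisy because MAS5 corrects for mismatch probes. No detection calls were used.

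Genotype and time came from the sample titles. Names came from the platform annotation, in which 13513 probe sets have 1 gene, 503 several and 8794 none. Of the first, 13436 matched RefSeq (TAIR10.1), used for names and gene order only. A further 2 probe sets with a P450 symbol belong to several genes and were left out.

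After each array had been set to a trimmed mean of 500, log2(signal + 50) was taken. Probe sets with a highest signal of at least 185, the median of all values, entered limma 3.58.1 (R 4.3.3, trend in the variance prior, Benjamini-Hochberg over all 13062, threshold 0.05). The fits were genotype with time as a factor, and the same with genotype by log2 minutes. The code was tested on simulated data of 13062 probe sets, 200 of them changed by 1 or 2 on the log2 scale. For changes of 1 and 2, the test of a mean flu minus Ler difference called 10% and 69%. Genotype by log2 minutes, with slopes of that size per doubling, called 80% and 100%, and 2 h minus 30 min 2% and 43%. Unchanged probe sets called were 4, 25 and 2 in that order. Alternatives were offsets of 16 and 100, quantile normalization, no rescaling, a filter at the 75th percentile (591) or none, no trend, each time left out, no time term and, for sizes of change, 1.5-fold and 4-fold. Because the deposited arrays already had a trimmed mean of 500, the alternative without rescaling had to repeat the main results. Values of all 10 members are given under a rule that asked for called genes and for the 5 highest and lowest at each time. Members, lists and tests were chosen with earlier results of these data known. Of 103 entries in lists of P450 functions and redox partners, 3 were named on the array and 2 of these tested (CYP71B6 and CYP78A9), so no list is described. Tables and plots were made with Python 3.11.15, pandas 2.3.3 and matplotlib 3.10.9.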

Additional observations from a re-analysis of the deposited data

Results flagged for a closer look

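CYP71B23 was picked out because its flu minus Ler difference changed with time in a test of that change, by 0.67 per doubling of the time in light (SE 0.17, limma, adjusted p = 0.0479). It was also picked out because every step in Ler went the other way from flu, in which the signal changed by 1.08 from 30 min to 2 h on the log2 scale, against -0.26 in Ler. CYP71B22 was picked out for the same opposite course, with 1.15 in flu and -0.30 in Ler. For CYP71B22 the change of the difference with time did not pass (limma, adjusted p = 0.176). In each gene 1 of the Ler steps was close to none, at -0.05 for CYP71B23 and -0.02 for CYP71B22. Each value rests on 1 array per genotype and time.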

How the results depend on the processing

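Of the 3 counts of called members 2 changed under some alternative. For flu against Ler, 1 member in place of 0 was called without the 30 min arrays, without the 2 h arrays and without a time term (each time CYP71B22, limma, adjusted p = 0.0177, 0.0290 and 0.0373). By genotype and log2 minutes, 0 in place of 1 were called with quantile normalization and without a trend. For 2 h against 30 min the count was 0 in the alternatives run (and 4 of all probe sets with the stricter filter, against 0). Of sizes of change, at 1.5-fold 1 member was higher at 30 min, 2 were lower at 60 min and 1 was lower at 2 h. At 4-fold 0 were higher at 60 min and 1 at 2 h (CYP71B22). The stricter filter, which keeps 3 members and drops CYP71B22, gave the same counts for another gene, CYP71B23 at 2 h. With an offset of 16, 1 was lower at 2 h. Differences that changed sign were all small and uncalled. Without the 60 min arrays these were CYP71B6 (0.0543) and CYP71B5 (0.0449), for genotype by log2 minutes CYP78A9 (0.0047 with an offset of 16 and 0.0257 with quantile normalization), and for 2 h against 30 min CYP71B26 (0.0571 with quantile normalization). Medians of the members moved by less than the spread among them, a wide bar (SD 0.344, 0.812 and 0.897 over the 10 in order of time). At 30 min the median changed sign with quantile normalization, from 0.0364 to -0.0256 for the 10 and from 0.0576 to -0.0058 for CYP71B. Leaving out a time leaves 1 residual degree of freedom, and the test of genotype by log2 minutes then has none and was not run. Of all probe sets, 424 were called for flu against Ler, and 75, 701 and 717 without the 60 min, 30 min and 2 h arrays. By genotype and log2 minutes 663 were called, against 390 with quantile normalization and 338 without a trend. No paired analysis was possible because each group has 1 array and so no replicate numbers to pair, apart from the times, which were blocks in the fit as reported. Counts of brightest arrays and of members below Ler under other scalings were added after seeing the data. MAS5 signals near background limit what can be said of dim genes such as CYP71B22 in Ler.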
